A study of Mus musculus with 4 samples.

Results

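The 10 genes described here encode known regulators of the 2-cell-like (2C-like) state of mouse embryonic stem cells (ESCs). They were chosen by name: 8 chromatin repressors of the endogenous retrovirus MERVL and of 2-cell genes (Trim28, Setdb1, Kdm1a, Smchd1, Chaf1a, Chaf1b, Pcgf6 and Rif1) and 2 activators (Dppa2 and Dppa4). All 10 were found by gene symbol among the 50559 genes of the count table, and all 10 were among the 18144 genes with enough reads to be tested.

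A small fraction of cultured ESCs switches on genes of the 2-cell embryo, such as Dux, the Zscan4 cluster and MERVL-driven transcripts, and then returns to pluripotency. Chromatin holds this program in check: TRIM28 is recruited to retroviral elements by zinc finger proteins and brings SETDB1, which methylates histone H3 at lysine 9. KDM1A removes methyl groups from histone H3 lysine 4, chromatin assembly factor 1 (CAF-1) loads histones behind the replication fork, and PCGF6 belongs to a variant Polycomb complex, PRC1.6, that silences germline genes. In the other direction, DPPA2 and DPPA4 act together as DNA-binding activators upstream of Dux.

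Poly(A)+ RNA-seq compared E14 mouse ESCs depleted of Cnot1 by siRNA (siCnot1) with cells given a non-targeting siRNA (siNT), with 4 libraries, 2 biological replicates for each siRNA. In both groups the siRNA was at 150 nM, the cells grew with leukemia inhibitory factor on gelatin, and RNA was taken after 48 h. The study's methods describe ESCs with a tdTomato transgene under the MERVL promoter and its results describe a doxycycline-inducible Dux in the cells of its m6A profiling, while the labels of these libraries name only E14. Each library is a whole transfected culture, so a change in every cell and a change in a few cells cannot be told apart, and neither can fewer cells of a type and less RNA per cell. The study asked whether loss of CNOT1, the scaffold of the CCR4-NOT deadenylase, favors the 2C-like state. The present comparison asks whether the mRNAs of the known regulators moved as well.

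The libraries held 32135824 to 32557440 counts on genes. Cnot1 had 28397 and 30903 counts in siNT and 6188 and 6425 in siCnot1, and its normalized level fell to 0.198-fold. The cells carried the markers of ESCs: all 10 of the list used (Pou5f1, Sox2, Nanog and 7 more) were tested, with a summed level of 7692 to 7964 CPM (counts brought to a common library total, adjusted by edgeR's TMM factors) in siNT and 6392 to 6699 CPM in siCnot1, and 8 of the 10 were called lower (4 with library totals). Beside these counts and those below, 14.7% of all tested genes were called lower and 15.0% higher. Of genes at or above 83.9 CPM, 41.0% were called lower (23.2% with library totals) and 12.7% higher. Markers of other cells were low. The 6 fibroblast markers summed to 21.6 to 24.9 CPM in siNT and 33.7 to 37.0 CPM in siCnot1, with Col3a1 at 0 in every library, and 3 of the 5 tested were higher. The 6 primitive endoderm markers summed to 11.1 to 13.2 CPM and 20.6 to 21.5 CPM, with 2 of the 5 tested higher. The 6 trophectoderm markers summed to 78.8 to 81.5 CPM and 62.6 to 66.9 CPM, with 1 of the 5 tested higher and 1 lower. The 6 markers of primed or differentiating cells summed to 31.1 CPM in both siNT libraries and to 20.5 and 22.6 CPM in siCnot1, with 2 of the 4 tested lower and T at 0 in every library. The part of these shifts in the values below was not tested.

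mRNAs reach CCR4-NOT through adaptors that read short sequences in 3′ UTRs, among them Pumilio proteins, proteins that bind AU-rich elements, m6A readers and the microRNA machinery. Each member's 3′ UTR was read, in the sense of the mRNA, from 1 GENCODE M21 transcript of the gene (GRCm38). The Pumilio motif TGTANATA was held by 3 of the 10 members, against 23.9% of the 13509 tested genes with an annotated 3′ UTR. The windows are shown because Pumilio proteins bind CCR4-NOT directly. Capitals mark the motif, and positions count from the first base after the stop codon.
Pcgf6, position 966: tttatgaacTGTACATAaatctcttc
Rif1, position 734: agaaacattTGTATATAtttaatatc
Smchd1, position 359: atatttaacTGTAAATAtatgtggaa
Smchd1, position 520: actgtatccTGTATATAagtaagata

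miR-294-3p belongs to the most abundant microRNA family of mouse ESCs. Its mature sequence (RefSeq, GRCm38.p6) is printed with the seed, bases 2 to 8, in capitals, and the sites are the 3′ UTR matches AGCACTT to the seed, also in capitals. They were present in 2 of the 10 members, against 15.4% of the tested genes.
miR-294-3p: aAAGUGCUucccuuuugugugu
Chaf1a, position 239: atgataaagAGCACTTtgtcctaca
Chaf1a, position 373: cttaatcacAGCACTTgctgtgggc
Smchd1, position 543: atatgcagcAGCACTTggctttaat

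GGACT, a common form of the m6A motif, is shown because m6A readers of the YTHDF family bring mRNAs to CCR4-NOT. It was held by 5 members, against 59.6% of genes, with the motif in capitals.
Setdb1, position 143: tctcaatcaGGACTttcccagcg
Kdm1a, position 109: cagctactgGGACTcctagtttg
Chaf1a, position 934: tattgctggGGACTcagggaaag
Pcgf6, position 326: ccagagctgGGACTctgccctcc
Smchd1, position 295: cctttttctGGACTtatttaaca

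The AU-rich heptamer TATTTAT was held by 2 members (Chaf1a and Rif1), against 27.5% of genes. Dppa2, Dppa4, Trim28 and Chaf1b held none of the 4 motifs. In the comparison below, 2 of the 3 members with a Pumilio match were called lower (Pcgf6 and Rif1, not Smchd1). Of the 2 with the AU-rich heptamer, Rif1 was called lower and Chaf1a was not. Also called lower were 2 of the 5 with GGACT (Kdm1a and Pcgf6, not Setdb1, Chaf1a or Smchd1) and 0 of the 2 with a miR-294 site. Of the 4 with none of the motifs, 3 were called lower (Trim28, Dppa2 and Dppa4, not Chaf1b). Of all tested genes 14.7% were called lower, and of those at the members' level 41.0%. The share among all genes with each motif was not taken, so these counts do not bear on the motifs. The 3′ UTRs without a motif held 173 (Trim28), 1012 (Dppa2), 505 (Dppa4) and 98 (Chaf1b) bases. The median was 962 bases over all genes and 698.5 over the members. A match is a string of letters in an annotated transcript, and binding was not measured. The GENCODE 3′ UTR of Chaf1a is long, 2726 bases beside 3308 exon bases in the deposited model, so its sites may lie outside the counted exons.

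Relative to the other mRNAs of each library, the mRNAs of the 10 regulators stayed close to their control levels while the 2-cell genes rose. Every level and fold change here is relative in this sense. A change in total mRNA per cell, or in the capture of mRNAs by their poly(A) tails, was not measured. With TMM scaling, 6 of the 10 fell in siCnot1, with changes of -11.6% to -15.0%, at an adjusted p under 0.05 (edgeR's quasi-likelihood test, Benjamini-Hochberg adjustment over all 18144 genes): both activators and 4 of the 8 repressors (Trim28, Kdm1a, Pcgf6 and Rif1). None was called higher, none was higher at an unadjusted p under 0.05, and DESeq2 and limma-voom also called 0 higher and the same 6 lower. Setdb1, Smchd1, Chaf1a and Chaf1b were not called. Over all tested genes, 14.7% were called lower and 15.0% higher. These regulators are well expressed, and of the 2938 genes at or above the level of the lowest of them (83.9 CPM, mean of 4 libraries), 41.0% were called lower and 12.7% higher. The members' median log2 fold change was -0.19, beside a median of -0.11 for genes at their level and 0.0084 for all tested genes.

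**Figure D1:**
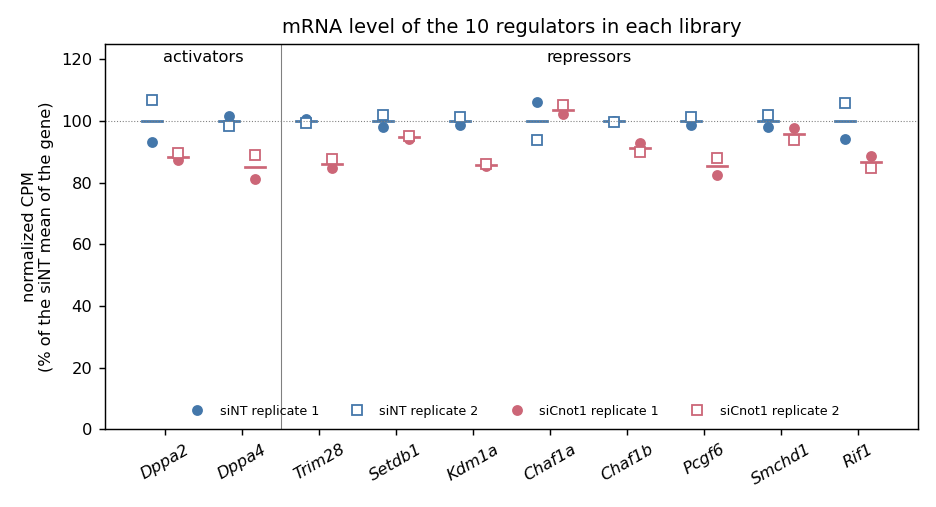
Normalized CPM of each regulator in each library, as a percent of that gene's siNT mean; the vertical axis starts at 0, symbols are single libraries and short lines are group means of 2. The siCnot1 points lie at or a little below the siNT mean for most genes, and Chaf1a is the gene whose groups overlap.

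No member came near the size of change the study used as its threshold, a log2 fold change of 1 in either direction. The 95% intervals of the 10 members ran from -0.37 to 0.19 on the log2 scale, that is from 0.774-fold to 1.14-fold, and 0 of 10 passed an unadjusted p of at most 0.05 together with that fold change, against 7.98% of all tested genes. For 9 of the 10, both siCnot1 libraries lay below both siNT libraries in TMM-scaled CPM, a separation shown by 31.2% of all tested genes and by 58.2% of those at the members' level. This separation rested in part on the scaling. In raw counts, with library totals close to each other, Trim28, Kdm1a, Dppa4 and Pcgf6 still lay lower, and Chaf1b barely (2824 and 2836 in siNT, 2815 and 2724 in siCnot1). Dppa2, Setdb1, Smchd1 and Rif1 overlapped there, and Chaf1a lay higher in siCnot1 (4572 and 4072 in siNT, 4736 and 4868 in siCnot1). The shares of all genes were not taken on raw counts.

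The size of these shifts is near that of the choice of scaling. TMM raised the siNT libraries relative to siCnot1 (factors 0.964 and 0.964 against 1.04 and 1.03), and with plain library totals the median of all tested genes moved from 0.0084 to 0.12. On that scale the members' log2 fold changes ran from -0.13 (Dppa4) to 0.16 (Chaf1a), 0 of 10 were called in edgeR (3 lower and 1 higher at an unadjusted p under 0.05), and Setdb1 and Smchd1 changed sign to 0.029 and 0.045. The share of calls that were higher moved from 50.5% to 71.8%. With library totals, 8.64% of all tested genes and 23.2% of those at the members' level were called lower. The number called also rested on single libraries: it was 0 without siNT replicate 1 and 0 without siNT replicate 2 (6 and 4 lower at an unadjusted p under 0.05), 2 without siCnot1 replicate 1 (Kdm1a and Rif1), and 4 without siCnot1 replicate 2 (Trim28, Kdm1a, Dppa4 and Pcgf6).

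**Figure D2:**
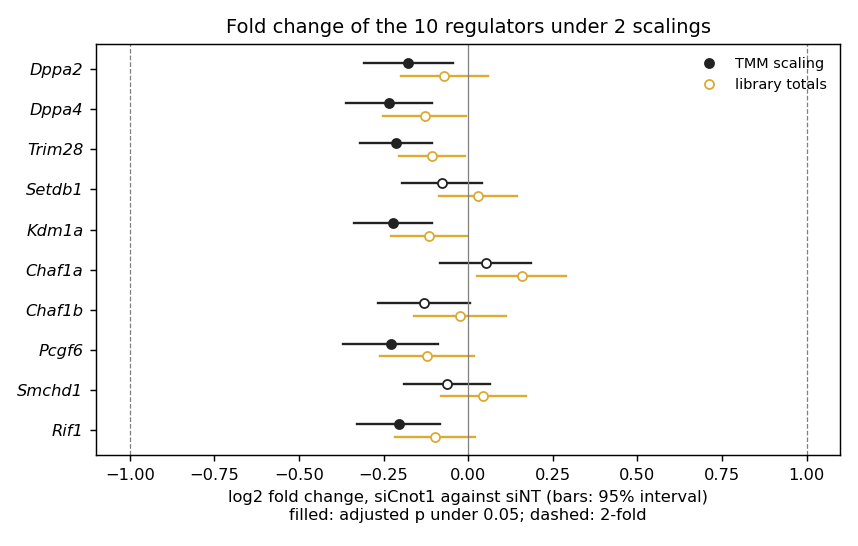
log2 fold change of each regulator, siCnot1 against siNT, with 95% intervals (horizontal axis), under TMM scaling and under library totals; filled points have an adjusted p under 0.05 and dashed lines mark a 2-fold change. Under TMM 6 points are filled and under library totals none is, and every interval lies far inside the dashed lines.

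The activators come first. Dppa2 and Dppa4 lie next to each other on chromosome 16 in the same orientation (GRCm39, Dppa4 at 48104098 to 48114655 and Dppa2 at 48130637 to 48139876, plus strand). Dppa2 had 217 and 249 CPM in siNT and 203 and 208 CPM in siCnot1. The siCnot1 libraries agreed closely, and the siNT libraries lay farther from each other than the nearer of them lay from siCnot1. The log2 fold change was -0.18 (standard error of the fit, SE, 0.0632; adjusted p = 0.037 in edgeR), and this call was the least stable of the 6: with upper-quartile scaling it had an adjusted p of 0.063, with the replicate number as a block 0.054, and without siNT replicate 2 the log2 fold change was -0.07. Dppa4 had 186 and 180 CPM in siNT and 148 and 162 CPM in siCnot1. Its groups were further apart, with the largest fold change of the 10, -0.23 (SE 0.0612, adjusted p = 0.0052 in edgeR), or 0.85-fold.

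Because DPPA2 and DPPA4 work as a pair, their ratio within each library was also taken, as counts per kilobase of exon, which no scaling between libraries can alter. The Dppa2 to Dppa4 ratio stood at 0.923 and 1.09 in siNT and 1.09 and 1.01 in siCnot1. The groups overlapped, and the log2 difference of 0.06 had an exact permutation p of 1 (two-sided, 2 against 2 libraries, where the smallest p possible is 0.333). The mRNAs of the 2 partners thus stood near 1 to 1 in every library.

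Among the repressors, Trim28, the corepressor shared by KRAB zinc finger proteins, was by far the most abundant (GRCm39 chromosome 7, 12758079 to 12764959, plus strand). It had 1790 and 1766 CPM in siNT and 1506 and 1559 CPM in siCnot1. The siNT libraries differed by little and both lay above both siCnot1 libraries. The log2 fold change was -0.21 (SE 0.0512, adjusted p = 0.0026 in edgeR). Setdb1, the histone H3 lysine 9 methyltransferase that TRIM28 recruits (chromosome 3, 95230836 to 95264513, minus strand), had 195 and 204 CPM in siNT and 188 and 190 CPM in siCnot1. The groups did not overlap but lay close, and the gene was not called (log2 fold change -0.08, 95% interval -0.20 to 0.04, adjusted p = 0.337 in edgeR). The Trim28 to Setdb1 ratio per kilobase stood at 13.2 and 12.5 in siNT and 11.5 and 11.8 in siCnot1, a log2 difference of -0.14 (exact permutation p = 0.333, two-sided, the smallest this design can give).

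Kdm1a, which encodes the histone demethylase LSD1 (chromosome 4, 136277844 to 136330127, minus strand), had 244 and 250 CPM in siNT and 211 and 212 CPM in siCnot1. Replicates were tight in both groups, and the log2 fold change was -0.22 (SE 0.0559, adjusted p = 0.0039 in edgeR). Kdm1a shares 578 exon bases, 18.2% of its model, with Luzp1 on the opposite strand, which had 5796 and 6259 counts in siNT and 8619 and 9112 in siCnot1. Whether the counting used strand is not given in the sources used here, so how reads from the shared stretch were assigned was not tested.

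Neither large nor middle subunit of CAF-1 was called. Chaf1a, the large subunit (chromosome 17, 56347416 to 56375026, plus strand), had 147 and 130 CPM in siNT and 141 and 145 CPM in siCnot1. With TMM scaling it was the only member whose groups overlapped and the only one with a value above 0 (log2 fold change 0.05, 95% interval -0.08 to 0.19, adjusted p = 0.608 in edgeR), and without siNT replicate 2 the value was -0.04. It shares 620 exon bases, 18.7% of its model, with Ubxn6 on the other strand, which had 1012 and 1003 counts in siNT and 764 and 916 in siCnot1. Chaf1b, the middle subunit (chromosome 16, 93680788 to 93703003, plus strand), had 90.7 and 90.4 CPM in siNT and 84.0 and 81.3 CPM in siCnot1. Its groups were apart, but it was not called (log2 fold change -0.13, 95% interval -0.27 to 0.0045, adjusted p = 0.141 in edgeR). The Chaf1a to Chaf1b ratio per kilobase stood at 0.994 and 0.881 in siNT and 1.03 and 1.097 in siCnot1, a log2 difference of 0.19 (exact permutation p = 0.333, two-sided, the smallest possible).

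Pcgf6, the subunit that defines PRC1.6 (chromosome 19, 47022056 to 47039379, minus strand), had 89.4 and 91.6 CPM in siNT and 74.7 and 79.7 CPM in siCnot1, with no overlap. The log2 fold change was -0.23 (SE 0.0678, adjusted p = 0.0126 in edgeR). Smchd1, a noncanonical SMC protein that acts in X inactivation and on Dux (chromosome 17, 71651484 to 71782361, minus strand), had 129 and 134 CPM in siNT and 129 and 124 CPM in siCnot1. The groups nearly touched, and the gene was not called (log2 fold change -0.06, 95% interval -0.19 to 0.06, adjusted p = 0.491 in edgeR). Rif1, which sets replication timing and brings protein phosphatase 1 to chromatin (chromosome 2, 51962725 to 52016781, plus strand), had 585 and 657 CPM in siNT and 551 and 526 CPM in siCnot1. Its siNT libraries were the more spread, yet both lay above siCnot1, with a log2 fold change of -0.21 (SE 0.0589, adjusted p = 0.0102 in edgeR).

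Levels were compared between the genes as TPM (counts divided by the deposited exon length and brought to the same sum in each library). TPM carry no TMM factors, so they serve to order genes within a group and not to measure changes between groups. Mean TPM of Setdb1, Chaf1b and Smchd1 was higher in siCnot1, whereas their log2 fold changes with TMM were below 0. In siNT, Trim28 stood at 1342 ± 6.06 TPM (SD, n = 2), and Dppa2 (293.8 ± 32.7) and Dppa4 (291 ± 2.57) followed at levels whose ranges overlapped. Kdm1a came next at 190 ± 6.10 TPM. Rif1 (110 ± 10.6), Chaf1b (109 ± 1.31), Setdb1 (105 ± 4.57) and Chaf1a (102 ± 7.45) lay close together; the ranges of Rif1 and Chaf1b overlapped, as did those of Setdb1 and Chaf1a, while the range of Chaf1b was just above that of Setdb1. Pcgf6 (45.6 ± 1.46) and Smchd1 (45.6 ± 1.82) were the lowest and could not be ordered. In siCnot1, Trim28 was at 1292 ± 14.4 TPM, Dppa2 at 290 ± 1.24, Dppa4 at 277 ± 14.5 and Kdm1a at 182 ± 1.61. The order of these means was that of siNT, where Dppa2 and Dppa4 could not be ordered. Chaf1a was at 118 ± 0.854 TPM, above Chaf1b (111 ± 3.95), Setdb1 (111 ± 0.538) and Rif1 (106 ± 4.97), and Smchd1 (48.8 ± 2.05) and Pcgf6 (43.5 ± 1.41) again came last.

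**Figure D3:**
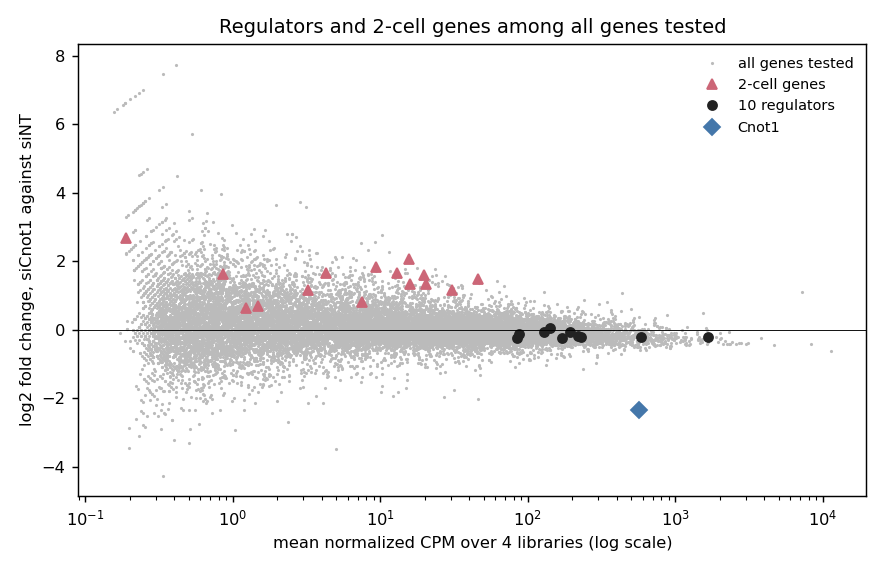
log2 fold change of each tested gene (vertical axis) against its mean normalized CPM over the 4 libraries (horizontal axis, log scale), with the 10 regulators, the 2-cell genes and Cnot1 marked. The regulators lie at 83.9 CPM or more, inside the main band of well-expressed genes, with Chaf1a just above 0 and the others just below. The 2-cell genes lie at lower levels and all above 0.

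The pattern over the 4 libraries was shared with many other genes. Among 9486 other genes with at least 10 CPM, the 3 closest to the mean of Dppa2 and Dppa4 were Pspc1, Golga7 and Adh5, at Euclidean distances of 0.0058, 0.0083 and 0.0121 in centred log2 CPM, and 787 genes lay within 0.1. The 3 closest to the mean of the 8 repressors were Zfp687, Mark3 and Vps4a, at 0.0063, 0.0070 and 0.0096, with 1214 genes within 0.1. Within the members, Trim28 and Kdm1a were each other's nearest, at 0.0498, and Chaf1a was the farthest from any other, at 0.212 from Smchd1.

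The mRNAs of proteins that work with these regulators changed more than those of the regulators themselves in a few places. Of the 21 heterochromatin partners of TRIM28 and SETDB1, 8 fell, 2 rose and 11 were not called, with a median log2 fold change of -0.11. Sumo2, the modifier that TRIM28 attaches, fell from 313 and 316 to 238 and 256 CPM (log2 fold change -0.35, adjusted p = 5.94e-05 in edgeR). Ehmt2, the H3 lysine 9 methyltransferase G9a, fell by a log2 value of -0.35 (adjusted p = 0.000196) and Mphosph8, a subunit of the HUSH silencing complex, by -0.27 (adjusted p = 0.00102, both in edgeR). Atf7ip, the cofactor that stabilizes SETDB1, rose by 0.23 (adjusted p = 0.0126 in edgeR), and so did Morc2a, by 0.16 (adjusted p = 0.0496 in edgeR). With library totals 5 of the 21 were lower and 3 higher.

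Of the 11 KDM1A complex partners, 2 rose and 2 fell, with a median of -0.0025. Gse1 (log2 fold change 0.36, adjusted p = 9.26e-05) and Phf21a (0.41, adjusted p = 0.000649), both found in LSD1 corepressor complexes, rose. Rcor1, the CoREST scaffold (-0.26, adjusted p = 0.0057), and Rcor2 (-0.17, adjusted p = 0.0378, all in edgeR) fell. The split depended on scaling, since with library totals 4 were higher and 0 lower in edgeR (1 lower at an unadjusted p under 0.05). Of 8 CAF-1 partners and histone chaperones, 3 fell and 0 rose, with a median of -0.06: Pcna, the sliding clamp (-0.24, adjusted p = 0.0026), Rbbp4, the small CAF-1 subunit (-0.21, adjusted p = 0.0035), and Hira (-0.26, adjusted p = 0.0035, all in edgeR). With library totals 0 were called lower in edgeR (3 at an unadjusted p under 0.05).

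Of the 10 PRC1.6 partners of PCGF6, 3 fell and 0 rose, with a median of -0.08. Wdr5 went from 427 and 425 CPM to 292 and 312 CPM (log2 fold change -0.50, adjusted p = 4.44e-07 in edgeR), and Rnf2, the ubiquitin ligase RING1B, from 216 and 236 to 164 and 162 CPM (-0.47, adjusted p = 2.11e-06 in edgeR). Yaf2 was lower by -0.39 (adjusted p = 0.0261 in edgeR). With library totals Wdr5 (-0.39) and Rnf2 (-0.37) were still called lower, Yaf2 was not, and 2 partners were called higher. The complex-specific subunits Mga (0.05) and L3mbtl2 (0.13) were not called with TMM (adjusted p = 0.57 and 0.0955 in edgeR), and they were the 2 called higher with library totals, at 0.15 and 0.24 (adjusted p = 0.0317 and 0.0027 in edgeR).

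RIF1 acts through protein phosphatase 1, and the genes of all 3 of its catalytic subunits fell. Ppp1cb had 412 and 425 CPM in siNT and 306 and 310 CPM in siCnot1 (log2 fold change -0.44, adjusted p = 1.55e-06 in edgeR). Ppp1cc (-0.38, adjusted p = 1.15e-05) and Ppp1ca (-0.35, adjusted p = 4.99e-05, both in edgeR) followed. Lrif1, a partner of SMCHD1 and the fourth gene of this list, was at 0.17 and was not called (adjusted p = 0.381 in edgeR). All 3 phosphatase genes were also called lower with library totals.

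Of 13 other reported regulators of the 2C-like state, 12 were tested, 4 fell and 1 rose, with a median of -0.19. Ncl, the nucleolar protein nucleolin (-0.25, adjusted p = 0.000536), Tet2 (-0.25, adjusted p = 0.0019) and Tet1 (-0.21, adjusted p = 0.0044, all in edgeR) had the smallest p. Usp7 also fell (-0.18, adjusted p = 0.0147), and Ep400 rose (0.15, adjusted p = 0.0443, both in edgeR). Nelfa, like Dppa2 and Dppa4 an activator, was at 0.08 (adjusted p = 0.39 in edgeR) with TMM and was called higher with library totals, at 0.19 (adjusted p = 0.0327 in edgeR). Duxf3, the gene for DUX itself, had 5 and 0 counts in siNT and 4 and 17 in siCnot1 and was too low to be tested. By RT-qPCR the study reported higher Dux with both of its Cnot1 siRNAs. With library totals 1 of the 12 tested regulators was lower (Ncl) and 2 were higher (Ep400 and Nelfa).

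**Figure D4:**
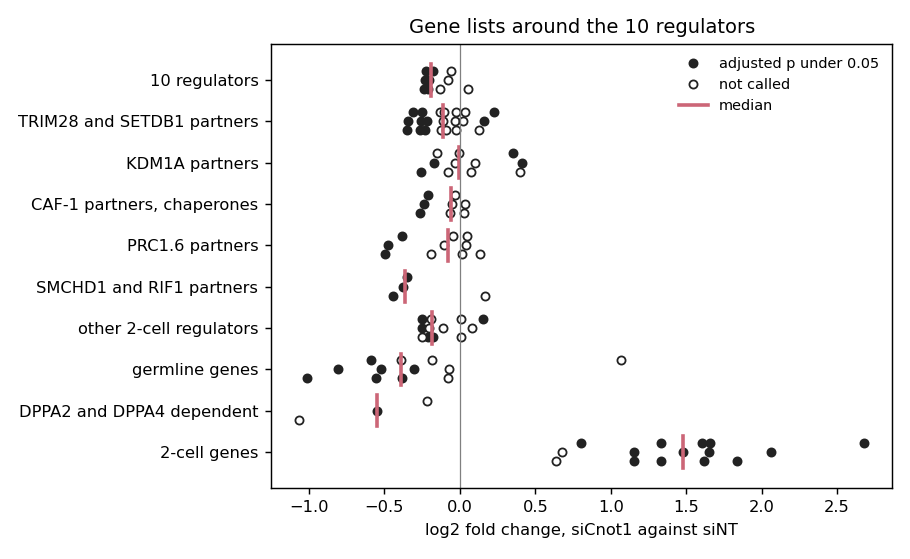
log2 fold change, siCnot1 against siNT (horizontal axis), of each tested gene in the lists around the regulators; filled points have an adjusted p under 0.05 with TMM scaling and red lines are medians. The regulators and most of their partners lie within 0.5 of 0, the germline genes mostly below it, and the 2-cell genes all above it, with a median of 1.48.

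Genes that these regulators are known to control were listed as well. The Zscan4 genes, which Dux activates, summed to 71.0 and 70.3 CPM over 6 members in siNT and to 188 and 191 CPM in siCnot1; the 6 are near-identical copies whose reads the counting could split, so the sum is given, and calls of single Zscan4 or Usp17l genes, also a family of near-identical copies, are uncertain. Of the 15 2-cell genes listed, 13 rose and 0 fell, with a median log2 fold change of 1.48 (1.59 with library totals); the list includes genes the study had examined in these libraries and is no independent evidence of direction. Usp17le, with the second smallest p, went from 6.07 and 6.09 to 23.7 and 27.1 CPM. No 2-cell gene was lower at an unadjusted p under 0.05, nor was any called lower by DESeq2 or limma-voom.

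A list of germline genes known as targets of PRC1.6, SETDB1 or DNA methylation was also measured. Not all were silent in the control cells, where Dazl lay above Kdm1a. Of the 12 listed, 7 fell, 0 rose and 5 were not called, with a median log2 fold change of -0.39 (-0.28 with library totals, where 5 fell). Over all tested genes 14.7% were called lower (8.64% with library totals). Dazl, an RNA-binding protein of germ cells, had 362 and 386 CPM in siNT and 219 and 209 CPM in siCnot1 (log2 fold change -0.81, SE 0.0575, adjusted p = 7.70e-10 in edgeR). Tex11, a meiotic gene, went from 24.1 and 25.9 to 12.1 and 12.7 CPM (-1.01, adjusted p = 4.04e-07 in edgeR). Stag3, a meiotic cohesin subunit, was at -0.56 (adjusted p = 6.42e-06 in edgeR). The highest value of the list was that of Tex101, 1.07, at under 1 CPM in every library and not called (adjusted p = 0.152 in edgeR).

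Of the 3 listed genes that need DPPA2 and DPPA4 for expression, Hormad1 fell from 43.5 and 50.3 to 34.5 and 29.6 CPM (log2 fold change -0.55, adjusted p = 0.000172 in edgeR). Syce1, at -0.22 (adjusted p = 0.0708 in edgeR), was not called, and Nkx2-5 stayed near or under 1 CPM in every library. In the lists with 0 called higher here (CAF-1, PRC1.6, phosphatase, germline and DPPA2- and DPPA4-dependent genes), DESeq2 and limma-voom also called 0 higher, and at an unadjusted p under 0.05 edgeR had 1 PRC1.6 partner higher (L3mbtl2) and 0 in the others.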

How the data were processed

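The authors made poly(A)+ libraries with dUTP strand marking, sequenced them paired-end on an Illumina NovaSeq and deposited raw read counts per gene, not normalized and with replicates kept apart. The submitters' processing notes name fastp 0.19.4, HISAT2 2.2.1, DESeq2 1.40.2 and mm10; the counting program is not given in the sources used here. The deposited gene positions differ from those of GRCm38 (the spans overlap for 1 of the 10 members) and are given as GRCm39. Which of the study's siRNAs against Cnot1 was used is not given.

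Groups came from the sample titles. Genes passing edgeR's filterByExpr (minimum count 10) were tested in R 4.3.3 with edgeR 4.0.16 (TMM, quasi-likelihood test, condition as the only term, Benjamini-Hochberg adjustment over 18144 genes), at an adjusted p under 0.05. This replaced DESeq2, the study's tool, which was an alternative (1.42.0), as was limma-voom (limma 3.58.1). Standard errors were taken from the fold change and its F statistic, and intervals are 95%. At this depth 3 counts equal 0.0921 to 0.0934 CPM. Intervals rest on the spread between 2 replicates per group, moderated by edgeR with the variation of all tested genes. They do not rest on a gene's own replicates alone. Scripts were tested on simulated data. The 10 members and the gene lists were chosen with earlier results of these data known, and the 3′ UTR motifs after the values were seen (3′ UTRs of at least 50 bases, 1 transcript per gene with the longest coding sequence). Genes were named by rule: the members, up to 3 genes with the smallest p among those called in each list, Duxf3, the Zscan4 sum and the 3 nearest genes by pattern; listed genes needed for a count of 5 or fewer were also named, and Mga, L3mbtl2, Nelfa and Tex101 were picked after their values were seen. Alternatives were other scalings, filters and tests, the replicate number as a block, and leaving out each library. Retrotransposons were not analysed here.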

Additional observations from a re-analysis of the deposited data

How the results depend on the processing

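The number of members called lower (6 of 10 with TMM) was 0 with library totals and 2 without a filter on low counts (Trim28 and Kdm1a), and 0 to 4 with 1 library left out, where the lone library of a group is assumed to vary like the other group. Their median log2 fold change moved from -0.19 to -0.085 with library totals and lay between -0.21 and -0.13 with 1 library left out. Of single members, Setdb1 (0.029) and Smchd1 (0.045) changed sign with library totals and Chaf1a (-0.035) without siNT replicate 2, with 0.14 as its highest value when another library was left out. Counts higher and past the study's thresholds stayed at 0 in each alternative. Library totals shift every gene by construction; the cause of the other changes was not tested.

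Over all genes, library totals gave 1567 lower in place of 2668 (3989 higher, a share of 71.8% in place of 50.5%), no filter gave 1450 lower and 1303 higher, and leaving out 1 library gave 705 to 1960 lower and 625 to 1989 higher. In the partner lists, library totals gave 5 lower for TRIM28 and SETDB1 partners, 0 lower and 4 higher for KDM1A partners, 0 lower for CAF-1 partners, 2 higher for PRC1.6 partners, and 1 lower and 2 higher for other regulators. Without a filter the TRIM28 and SETDB1 partners had 0 higher, KDM1A partners 1 lower, CAF-1 partners 1 lower, other regulators 0 higher and germline genes 4 lower. With DESeq2's size factors and with DESeq2 itself the TRIM28 and SETDB1 partners had 1 higher, with the size factors other regulators had 0 higher, and with upper-quartile scaling KDM1A partners had 1 lower.

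With 1 library left out the ranges were 0 to 8 lower and 0 to 1 higher for TRIM28 and SETDB1 partners, 0 to 2 lower and 1 to 3 higher for KDM1A partners, 0 to 3 lower for CAF-1 partners, 0 to 4 lower and 0 to 0 higher for other regulators, 3 to 6 lower for germline genes, and 0 to 1 lower for genes that need DPPA2 and DPPA4. The 2-cell genes had 10 to 12 higher. The log2 difference of the Dppa2 to Dppa4 ratio ran from -0.06 to 0.18, of Chaf1a to Chaf1b from 0.10 to 0.27 and of Trim28 to Setdb1 from -0.18 to -0.10.

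With the replicate number as a block, 5 members were called lower (all but Dppa2 of the 6), the TRIM28 and SETDB1 partners had 1 higher, KDM1A partners 1 lower and other regulators 0 higher, and 2431 genes were lower and 2524 higher. Same-numbered libraries deviated from their group means with a correlation of -0.0057 over 18144 genes, so no shared effect of the replicate number was seen. Whether same-numbered cultures were prepared together is not given in the labels.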
